A study of Mus musculus with 9 samples.

Results

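The subunits of the respiratory chain and of the ATP synthase were followed in sorted cells of the newborn mouse retina. The group held every gene whose platform symbol begins with Ndufa, Ndufb, Ndufc, Ndufs, Ndufv, Uqcr, Cox4 to Cox8 or Atp5, together with Sdha, Sdhb, Sdhc, Sdhd and Cycs, and without the Ndufaf assembly factors. These were 83 of 18194 genes measured, read by 173 of 45101 probe sets, and each gene was represented by its probe set with the highest mean over all arrays. Complex I (NADH dehydrogenase) had 34 of the genes, complex II (succinate dehydrogenase) 4, complex III (cytochrome bc1) 8, complex IV (cytochrome c oxidase) 19, cytochrome c 1 and the ATP synthase 17. The genes were taken by symbol, but the group was chosen with earlier results of these data known. All 83 were tested.

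Expression was read on 9 Affymetrix arrays, with 3 biological replicates in each of 3 groups and retinae of 6 to 8 mice in each pool. The rhoGFP-positive and rhoGFP-negative groups were the GFP-positive and GFP-negative cells of the rhoEGFP line at postnatal day 4 (P4). The nestinGFP-positive group was the GFP-positive cells of the pNestin-GFP line at postnatal day 0 (P0). All animals shared the C57BL/6J-129/Ola background, and none carried a further allele or treatment in the labels. The GFP-negative fraction is whatever was left of the P4 retina and so a mixture of cell types, and the third group differs from the others in both line and age. Each replicate number occurs once in every group.

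The respiratory chain passes electrons from NADH and succinate through complexes I to IV to oxygen and pumps protons across the inner mitochondrial membrane, and the ATP synthase uses the returning protons to make ATP. Most subunits are encoded in the nucleus, and only these are considered here. Complex IV has several subunits with isoforms that are restricted to muscle, lung, testis or cells short of oxygen. Rod photoreceptors, which this line marks, carry a dense cluster of mitochondria in the inner segment once they are mature, and transcription factors such as NRF1, the estrogen-related receptors (ERR), ETS-family factors and YY1 are known to bind promoters of many of these genes.

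The 3 subunit genes with the largest rise in rhoGFP-positive against rhoGFP-negative cells, Ndufa4, Cox8a and Ndufb8, are shown with 3 others that rose and whose promoters carry a match to a motif of such a factor. Each sequence is the 250 bases before a transcript start in RefSeq on GRCm38.p6. It is read 5′ to 3′ on the strand of the gene, with motif matches in capitals.
Ndufa4 (chr6:11907451-11907700, minus strand): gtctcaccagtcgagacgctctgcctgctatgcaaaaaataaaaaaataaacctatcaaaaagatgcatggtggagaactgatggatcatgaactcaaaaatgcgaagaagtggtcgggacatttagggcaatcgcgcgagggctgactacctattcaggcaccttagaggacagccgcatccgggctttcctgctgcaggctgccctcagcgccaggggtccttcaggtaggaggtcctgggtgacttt
Cox8a (chr19:7217617-7217866, minus strand): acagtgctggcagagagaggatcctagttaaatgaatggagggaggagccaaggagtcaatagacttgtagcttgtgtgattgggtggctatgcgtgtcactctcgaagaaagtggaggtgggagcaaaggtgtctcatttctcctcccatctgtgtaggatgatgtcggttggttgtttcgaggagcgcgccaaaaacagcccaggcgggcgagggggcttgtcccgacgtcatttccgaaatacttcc
Ndufb8 (chr19:44555443-44555692, minus strand): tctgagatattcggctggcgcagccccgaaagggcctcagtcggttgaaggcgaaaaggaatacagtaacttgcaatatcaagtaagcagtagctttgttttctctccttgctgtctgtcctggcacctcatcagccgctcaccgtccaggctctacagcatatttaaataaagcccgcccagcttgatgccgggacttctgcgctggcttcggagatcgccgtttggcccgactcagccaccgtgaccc
Cox6a1 (chr5:115348959-115349208, minus strand): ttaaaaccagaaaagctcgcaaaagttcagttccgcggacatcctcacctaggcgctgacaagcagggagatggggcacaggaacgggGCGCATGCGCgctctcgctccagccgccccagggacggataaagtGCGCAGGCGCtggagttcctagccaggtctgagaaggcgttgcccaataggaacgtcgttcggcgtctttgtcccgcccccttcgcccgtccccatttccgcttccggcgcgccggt
Ndufa5 (chr6:24527691-24527940, minus strand): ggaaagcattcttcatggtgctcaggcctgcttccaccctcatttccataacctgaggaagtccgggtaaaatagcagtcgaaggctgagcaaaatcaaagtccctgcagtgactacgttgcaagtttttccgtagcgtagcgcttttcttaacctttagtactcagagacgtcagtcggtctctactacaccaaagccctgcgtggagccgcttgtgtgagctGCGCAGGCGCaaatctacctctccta
Atp5g3 (chr2:73911327-73911576, minus strand): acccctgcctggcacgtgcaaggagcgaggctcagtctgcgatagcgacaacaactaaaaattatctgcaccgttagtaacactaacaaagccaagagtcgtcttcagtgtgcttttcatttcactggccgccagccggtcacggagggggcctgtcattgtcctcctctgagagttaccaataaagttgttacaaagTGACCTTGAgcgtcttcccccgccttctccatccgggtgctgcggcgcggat
Both capital stretches of Cox6a1 and the stretch of Ndufa5, which lies 26 bases before this start, match the NRF1 motif, a CG-rich stretch with a free base near its middle. The capitals of Atp5g3 are the ERR motif TNAAGGTCA on the other strand, 52 bases before the start used. That start lies inside the gene, which reaches to base 73912464 at its 5′ end. Ndufa4, Cox8a and Ndufb8 had no match to these motifs, to the ETS motif CCGGAAGT or to the YY1 motif AANATGGCG in these windows, and no match shown overlaps one of another motif. RefSeq promoters were at hand for 68 of the 83 genes, with 73 starts. Matches on both strands were counted, and a stretch that reads as a motif on both strands was counted once per promoter. The NRF1 motif stood in 12 of these 73 promoters (16.4%) and in 3.74% of the 32851 promoters of all genes. The YY1 motif was in 4.11% against 1.12%, the ETS motif in 4.11% against 2.88% and the ERR motif in 2.74% against 1.14%. The median GC content was 57.6% in the subunit promoters and 52.4% in all promoters, and its part in these shares was not tested. Of 32 promoters of genes called higher in rhoGFP-positive cells against the rhoGFP-negative fraction 18.8% held the NRF1 motif, and of the 41 other subunit promoters 14.6%.

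The sorted cells matched their labels in rod genes and in progenitor and glial genes. Of 9 rod genes listed 7 were measured, and all 7 were higher in rhoGFP-positive than in rhoGFP-negative cells. Their median log2 value was 12.4 to 12.5 on the rhoGFP-positive, 8.34 to 9.58 on the rhoGFP-negative and 6.72 to 8.21 on the nestinGFP-positive arrays. Of 9 progenitor and glial genes 8 were lower, as were 5 of 5 amacrine genes, while none of 5 cone and 3 microglial genes was called. The median of these progenitor and glial genes was 10.8 to 11.3 on the nestinGFP-positive, 9.64 to 10.5 on the rhoGFP-negative and 7.68 to 8.49 on the rhoGFP-positive arrays. Amacrine genes were also highest on the nestinGFP-positive arrays, with a median of 9.70 to 10.2. Their median was 8.44 to 9.60 on the rhoGFP-negative and 6.25 to 7.08 on the rhoGFP-positive arrays. Array medians over all probe sets were 6.08 to 6.17. The 3' minus 5' log2 difference of the actin control, a sign of RNA integrity, was 0.85 to 0.97 on the rhoGFP-positive, 0.64 to 0.68 on the rhoGFP-negative and 0.40 to 0.99 on the nestinGFP-positive arrays. The same difference of the Gapdh control had means of -0.07, -0.02 and -0.05 in these groups. The signal of the 18S ribosomal RNA controls was 12.1 to 13.6 on the 3 replicate 1 arrays and 9.65 to 10.4 on the 6 others. The part of RNA integrity and of the 18S signal in the results below was not tested.

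Subunit transcripts were higher in rhoGFP-positive than in rhoGFP-negative cells of the same age, by a small amount in most genes. A gene was called higher or lower where limma gave an adjusted p below 0.05 over all 18194 genes, with no minimum size. On that rule 36 of 83 subunit genes (43.4%) rose, against 10.1% of all genes, and 2 fell, against 14.2% of all genes. That fit did not pair the arrays. A fit with the replicate number as a block called 50 higher, against 13.8% of all genes, and 4 lower, against 18.5%. The median log2 difference was 0.39, a 1.31-fold level, beside 0.01 for all genes, and 75 of 83 differences were above 0, against 51.5% of all genes. At a minimum of 2-fold, which 3.61% of all genes passed upward and 7.32% downward, 1 gene rose (Ndufa4) and 1 fell (Ndufa4l2). In bulk samples, fewer cells of a type and less RNA per cell cannot be told apart.

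On the scale of each gene's log2 value minus its mean over the 9 arrays, the median of the 83 genes was 0.47, 0.18 and 0.16 on the rhoGFP-positive arrays. It was -0.06, -0.14 and -0.14 on the rhoGFP-negative and -0.06, -0.09 and -0.31 on the nestinGFP-positive arrays. The rhoGFP-positive arrays were the 3 highest of 9, and their replicate 1 stood apart from the 2 others. Taken by replicate number, the median difference between the rhoGFP fractions was 0.54, 0.34 and 0.26, with 78, 70 and 69 of the 83 genes above 0, and 67 genes were higher in all 3 pairs, against 29.4% of all genes. Arrays of the 2 fractions did not overlap in 56 genes that were higher, against 17.9% of all genes, and in 3 that were lower, against 20.3%. The count of genes called higher was 20 without rhoGFP-positive replicate 1, with a median of 0.31, and 23 without rhoGFP-negative replicate 2 or without rhoGFP-negative replicate 3. It was 22 without the 3 replicate 1 arrays. Of the 36 calls 18 held in each of the 9 fits that left out 1 array: 9 of complex I, 5 of complex IV and 4 of the ATP synthase.

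**Figure D1:**
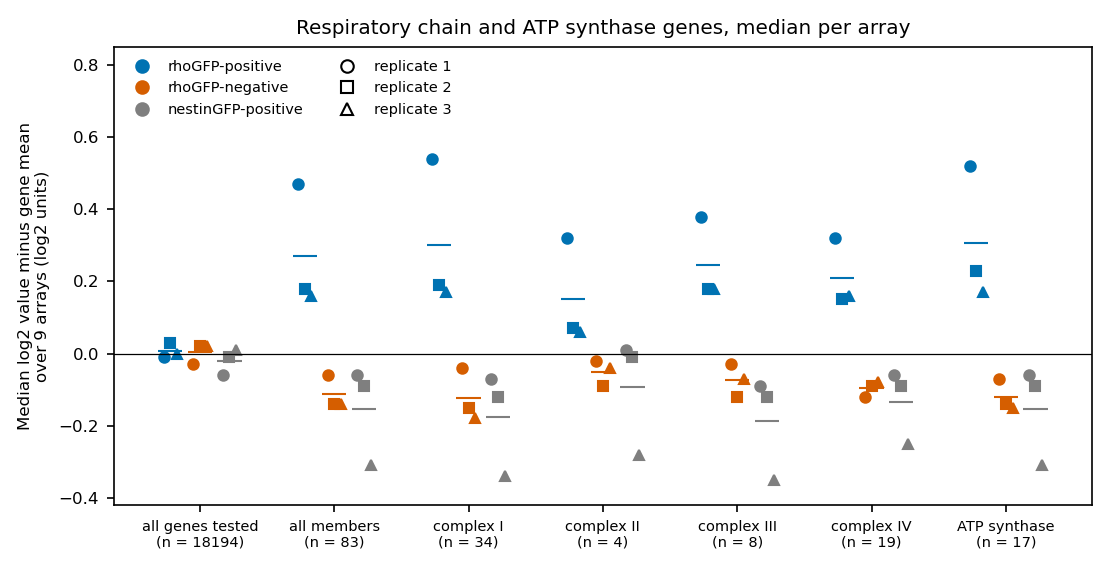
Median over the genes of each group of the log2 value minus the gene's mean over the 9 arrays, in log2 units, for every array. Colours mark the sorted groups, symbols the replicates and short lines the mean of 3 arrays; in all 83 genes (all members) the rhoGFP-positive arrays lie at 0.16 to 0.47 and the 6 others at -0.31 to -0.06, while all genes tested lie near 0.

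Complex I takes electrons from NADH, and its 34 genes had a median log2 difference of 0.40. Of these 15 rose and none fell. Of the 6 measured core subunits of the matrix arm that bind the flavin and iron-sulfur clusters or lie beside them, 3 rose. Ndufv1, which binds NADH, had log2 values of 11.8, 11.6 and 11.4 in rhoGFP-positive against 11.0, 10.9 and 10.9 in rhoGFP-negative cells. The fractions did not overlap, and the log2 difference was 0.63 ± 0.12 (SE, n = 3 arrays a group, limma adjusted p = 0.00331). Ndufs7, which holds the last iron-sulfur cluster before ubiquinone, differed by 0.56 ± 0.13 (limma adjusted p = 0.0113). Ndufs3 differed by 0.40 ± 0.11, but its call was lost without rhoGFP-positive replicate 1 or 3 or rhoGFP-negative replicate 2 or 3, at an adjusted p of up to 0.0883. Ndufs1, Ndufs8 and Ndufv2 were 0.36 ± 0.12, 0.32 ± 0.11 and 0.33 ± 0.14 and were not called, although none of them overlapped between the fractions. With the replicate number as a block Ndufs1 was called higher.

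The accessory subunits of complex I surround this core. The Ndufb subunits, all in the membrane arm, had a median of 0.58 and 7 of 11 rose, and of the 12 Ndufa genes of complex I, Ndufab1 included, with a median of 0.39, 4 rose. Ndufb8 was at log2 12.4, 11.7 and 11.6 in rhoGFP-positive and 11.2, 10.9 and 10.8 in rhoGFP-negative cells. All rhoGFP-positive arrays were higher, replicate 1 most, and the difference was 0.93 ± 0.21 (limma adjusted p = 0.0103), a 1.90-fold level. A further probe set for Ndufb8, with a mean of log2 5.02 near the lower end of the scale, gave -0.01 ± 0.10. Ndufb9 was at 12.5, 12.1 and 12.0 against 11.4, 11.3 and 11.3. These values did not overlap and differed by 0.84 ± 0.14 (limma adjusted p = 0.00186). Ndufa5, an accessory subunit of the matrix arm, differed by 0.75 ± 0.17 (limma adjusted p = 0.00853). The lowest difference in complex I was that of Ndufc2, -0.06 ± 0.21, with a 95% interval of -0.54 to 0.41 and values of 12.5, 11.8 and 11.8 against 12.4, 12.0 and 11.9. Its partner Ndufc1 was at 0.21 ± 0.21 and also overlapped between the fractions.

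Complex II oxidises succinate and is the only complex here that also belongs to the citric acid cycle. Of its 4 genes 1 rose, against 10.1% of all genes, and none fell, with a median of 0.26. Sdha, the flavoprotein, was at log2 11.4, 11.5 and 11.5 against 10.8, 11.1 and 11.2. The fractions did not overlap, and the difference of 0.43 ± 0.13 was called (limma adjusted p = 0.0329). That call was lost without rhoGFP-negative replicate 1 (adjusted p = 0.0994, difference 0.31) and without any of the 3 rhoGFP-positive arrays. The iron-sulfur subunit Sdhb differed by 0.06 ± 0.14, and the membrane anchors Sdhc and Sdhd by 0.09 ± 0.14 and 0.46 ± 0.16, none of them called. With the replicate number as a block Sdhd was called higher, its differences within the replicate numbers being 0.60, 0.51 and 0.26. The 95% interval of Sdhb was -0.25 to 0.37 and that of Sdhc -0.23 to 0.41.

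Complex III hands electrons to cytochrome c, and 5 of its 8 genes rose, with a median of 0.42. Uqcrq, a small subunit, had the largest rise at 0.63 ± 0.21 (limma adjusted p = 0.0494). The core protein Uqcrc1 was at 12.2, 12.2 and 12.0 against 11.6, 11.8 and 11.8 and differed by 0.45 ± 0.11 (limma adjusted p = 0.0171). The other core protein, Uqcrc2, differed by -0.03 ± 0.11, with a 95% interval of -0.28 to 0.22. The Rieske iron-sulfur protein Uqcrfs1 was at 0.14 ± 0.17 and not called. Each of the 5 calls of complex III was lost without at least 1 array, Uqcrc1 without rhoGFP-positive replicate 1 or 2 or rhoGFP-negative replicate 1 (adjusted p up to 0.065) and Uqcrq without any of 6 arrays (up to 0.156). Cytochrome c itself (Cycs) was at 11.5, 10.8 and 10.8 in rhoGFP-positive and 10.9, 10.7 and 10.4 in rhoGFP-negative cells. These values overlapped, and the difference of 0.34 ± 0.28 was not called (limma adjusted p = 0.467).

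Complex IV transfers the electrons to oxygen, and its general subunits and its tissue-restricted isoforms were counted apart. Of 11 general subunits, Ndufa4 included, 8 rose and none fell, with a median of 0.47. Of the 8 isoforms and paralogues known from restricted tissues none rose and 2 fell, with a median of -0.02. Over all genes 10.1% rose and 14.2% fell, and with 8 genes these counts do not set the isoforms apart from all genes. Cox7a1, Cox7b2 and Cox8b among them had means below log2 6.26, where folds are compressed. Ndufa4, first assigned to complex I and now to complex IV, was at log2 13.2, 12.7 and 12.5 in rhoGFP-positive and 11.9, 11.7 and 11.7 in rhoGFP-negative cells. The fractions were clear of each other, with a difference of 1.02 ± 0.18 (2.02-fold, limma adjusted p = 0.00235). Cox8a, the ubiquitous form of the smallest subunit, was at 12.8, 12.5 and 12.4 against 11.7, 11.6 and 11.6. It differed by 0.92 ± 0.12 and had the lowest adjusted p of the 83 genes (limma, 0.000357), and its other probe sets gave 0.93 ± 0.14 and 0.72 ± 0.14. Cox6c differed by 0.73 ± 0.12, Cox5b by 0.51 ± 0.11 and Cox6a1 by 0.51 ± 0.11, and these kept their calls whichever array was left out. Cox4i1, a subunit needed early in assembly, differed by 0.46 ± 0.11 (limma adjusted p = 0.0139, but 0.0567 without rhoGFP-negative replicate 2). Cox7a2 (0.47 ± 0.12) and Cox6b1 (0.36 ± 0.11) were called on all arrays. Cox7a2 lost its call without rhoGFP-positive replicate 1 or rhoGFP-negative replicate 2 (adjusted p up to 0.054), and Cox6b1 without any array but nestinGFP-positive replicate 3 (up to 0.128). Cox5a, at 0.32 ± 0.14, and Cox7c, at 0.20 ± 0.16, were not called. Cox7a2l, which helps to join complexes III and IV into supercomplexes, ran the other way at -0.43 ± 0.14, with no overlap between the fractions (limma adjusted p = 0.0549), and its 2 other probe sets gave -0.37 ± 0.12 and -0.35 ± 0.11.

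**Figure D2:**
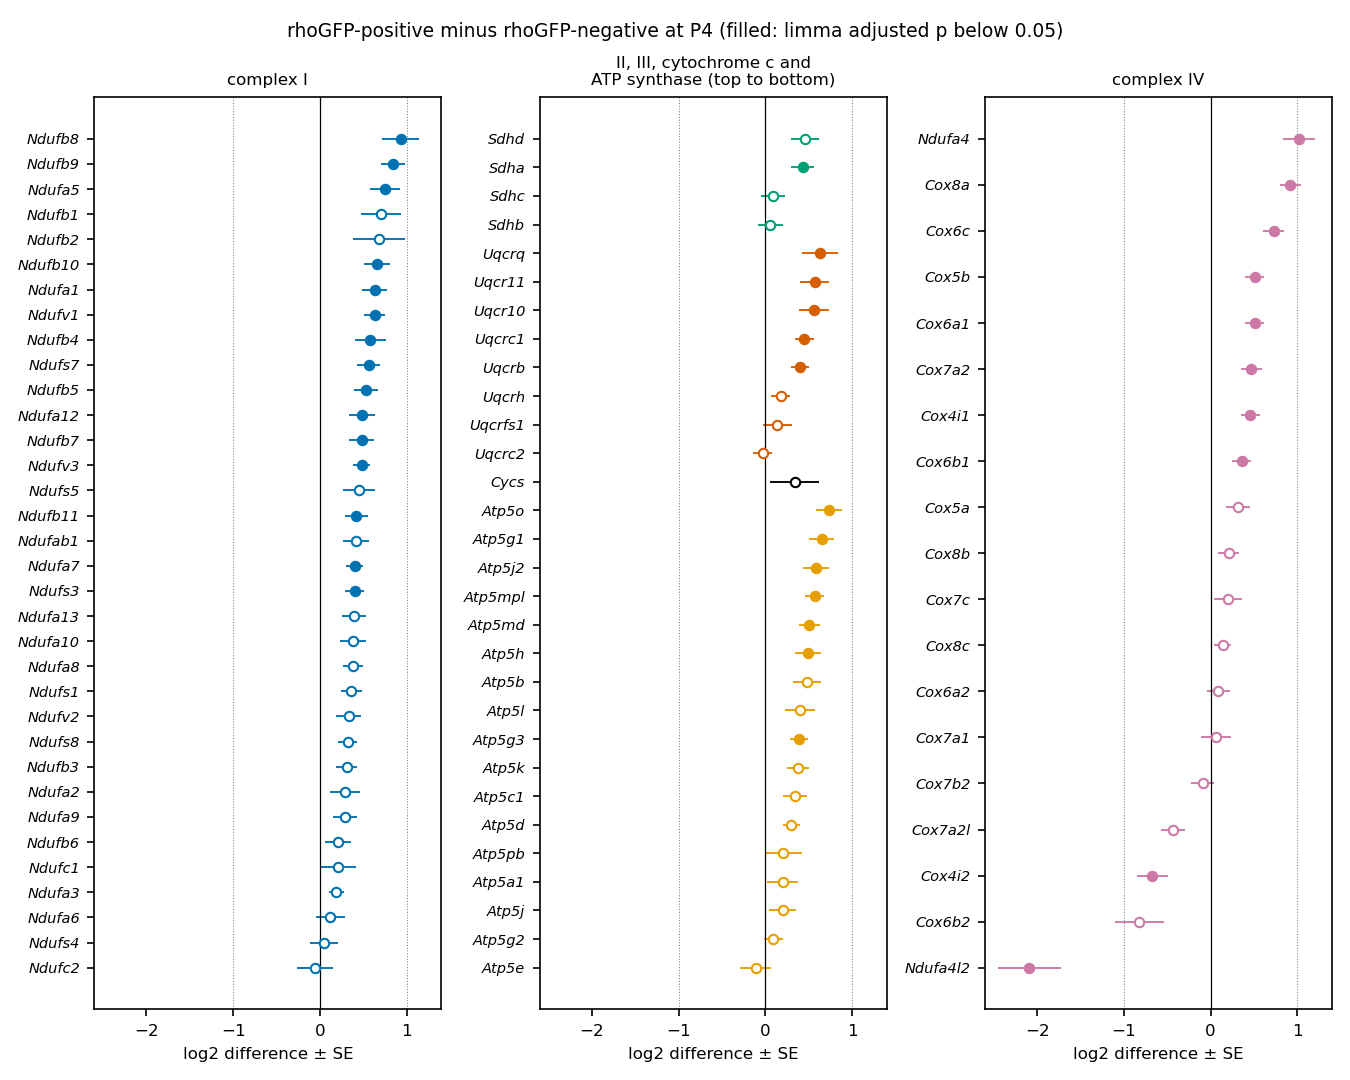
Log2 difference of rhoGFP-positive minus rhoGFP-negative cells with its standard error for each of the 83 genes, by complex (n = 3 arrays a group; filled points were called by limma, dotted lines mark 2-fold). Most points lie between 0 and 1; Ndufa4 reaches 1.02 and Ndufa4l2 lies at -2.09.

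The paralogue Ndufa4l2 and the isoform Cox4i2 fell, and both are known to be induced where oxygen is low in other cells. Ndufa4l2 was at log2 8.40, 8.18 and 9.06 in rhoGFP-positive cells, 10.4, 10.5 and 11.1 in rhoGFP-negative cells and 10.5, 10.0 and 11.5 in nestinGFP-positive cells. Each rhoGFP-positive array was below every other array, and the drop against the rhoGFP-negative fraction was 4.25-fold (log2 difference -2.09 ± 0.36, limma adjusted p = 0.00222). Cox4i2 was at 6.17, 6.02 and 6.07 against 6.76, 6.67 and 6.86, close to the level of 6.26 under which 40% of genes lay. It fell by 0.67 ± 0.18 on the log2 scale (limma adjusted p = 0.0213), a call lost without rhoGFP-positive replicate 2 or 3 or rhoGFP-negative replicate 3 (adjusted p up to 0.0741). Vessel markers moved with these genes in part. Of 4 listed, Kdr, which retinal progenitors also express, fell by 2.44 ± 0.18 and Cldn5 fell by 1.55 ± 0.26 on the log2 scale, and Pecam1 and Cdh5 were near the lower end of the scale in both fractions, with means of 4.28 to 4.56. The median of the 4 was 5.38 to 5.69 on rhoGFP-positive and 5.90 to 6.60 on rhoGFP-negative arrays, and its part in the result was not tested. Of 8 genes of pericytes and smooth muscle, listed after these values were seen, none was called, and their median was 5.48 to 5.81 on the rhoGFP-positive and 5.53 to 5.83 on the rhoGFP-negative arrays. These medians lie below 6.26, where folds are compressed, so the lack of calls does not show how many such cells each fraction held.

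The other restricted isoforms showed no call between the rhoGFP fractions. Cox6b2, known from testis, was at 6.46, 6.82 and 7.28 against 7.19, 7.62 and 8.22. Within each replicate number the rhoGFP-positive array was lower, but the fractions overlapped and the difference of -0.82 ± 0.28 was not called (limma adjusted p = 0.0599). With the replicate number as a block, Cox6b2 and Cox7a2l were called lower too, which gave 4 genes lower and 50 higher, against 18.5% and 13.8% of all genes in that fit. The muscle forms Cox6a2, Cox7a1 and Cox8b differed by 0.09 ± 0.13, 0.06 ± 0.17 and 0.21 ± 0.12. The testis forms Cox8c and Cox7b2 differed by 0.14 ± 0.10 and -0.09 ± 0.13. Cox7a1, Cox7b2 and Cox8b, like Ndufb4 of complex I, had means below 6.26, where folds are compressed.

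**Figure D3:**
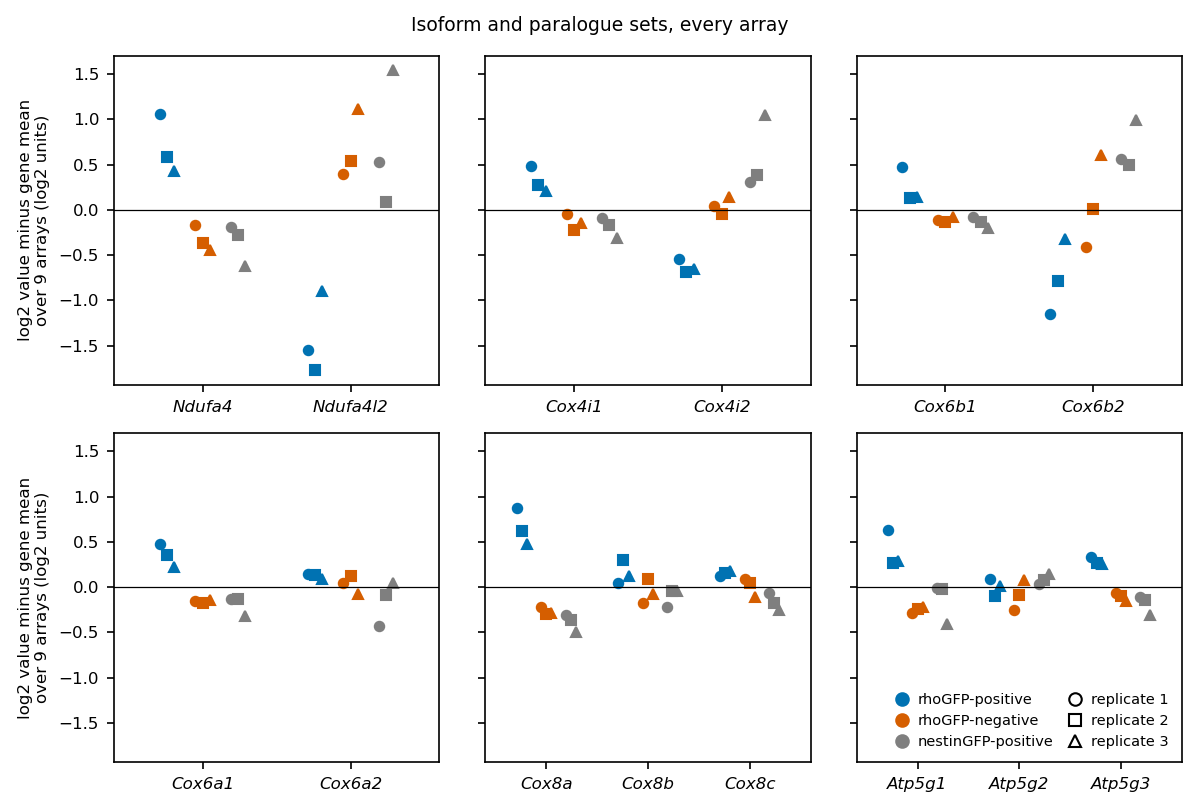
Log2 value minus the gene's mean over the 9 arrays, in log2 units, for sets of related genes on every array; colours mark the sorted groups and symbols the replicates. Ndufa4 and Cox8a are highest and Ndufa4l2, Cox4i2 and, against nestinGFP-positive cells, Cox6b2 lowest on the rhoGFP-positive arrays, and each symbol shows differences within a gene, not levels between genes.

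The ATP synthase consists of the catalytic head, the ring of c subunits that rotates in the membrane and the stalk and membrane subunits that hold them. Of its 17 genes 7 rose and none fell, with a median of 0.39. Of the 5 head subunits none was called. The beta subunit Atp5b was at 12.8, 13.1 and 13.0 against 12.1, 12.7 and 12.7, with no overlap and a difference of 0.48 ± 0.16 (limma adjusted p = 0.0541). The alpha subunit Atp5a1 differed by 0.20 ± 0.18, gamma (Atp5c1) by 0.34 ± 0.14, delta (Atp5d) by 0.30 ± 0.10 and epsilon (Atp5e) by -0.11 ± 0.18. With the replicate number as a block, Atp5b, Atp5c1 and Atp5d were called.

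Of the 9 stalk and membrane subunits 5 rose. Atp5o, which joins the stalk to the head, was at 12.4, 12.0 and 11.9 in rhoGFP-positive and 11.3, 11.3 and 11.4 in rhoGFP-negative cells. All rhoGFP-positive arrays were higher, and the difference of 0.73 ± 0.15 (limma adjusted p = 0.00583) was the largest of the complex. The small membrane proteins Atp5mpl and Atp5md differed by 0.57 ± 0.11 and 0.51 ± 0.12 (limma adjusted p = 0.00396 and 0.00905). Atp5j2 (0.58 ± 0.15) and Atp5h (0.49 ± 0.15) were called on all arrays. Atp5j2 lost its call without rhoGFP-positive replicate 1 or rhoGFP-negative replicate 2 or 3 (adjusted p up to 0.0709), and Atp5h without any of 6 arrays (up to 0.123). The c subunit is made from 3 genes with the same mature protein. Atp5g1 was at 10.9, 10.6 and 10.6 against 9.99, 10.1 and 10.1 and rose by 0.65 ± 0.14 (limma adjusted p = 0.00784). Atp5g3 rose by 0.39 ± 0.10 (limma adjusted p = 0.0141, but 0.0528 without rhoGFP-negative replicate 3). Atp5g2 differed by 0.09 ± 0.11 and overlapped between the fractions, with a 95% interval of -0.16 to 0.33.

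Against the nestinGFP-positive fraction of P0, rhoGFP-positive cells had more subunit transcripts as well, and this comparison shares its rhoGFP-positive arrays with the first. Limma called 48 of 83 genes higher, against 16.0% of all genes, and 3 lower, against 19.8%. The median log2 difference was 0.42, beside 0.06 for all genes, and the groups did not overlap in 59 genes that were higher, against 24.4% of all genes. By complex, 23 of 34 genes of complex I rose, 0 of 4 of complex II, 5 of 8 of complex III, 9 of 19 of complex IV and 11 of 17 of the ATP synthase. Of the 48, 34 had also been called against the rhoGFP-negative fraction. Those called only there were Ndufa12 and Sdha, and 14 were called only against the nestinGFP-positive fraction. At 2-fold, which 5.06% of all genes passed upward, 4 genes rose: Ndufb1 (1.12 ± 0.23), Cox8a (1.05 ± 0.12), Ndufa4 (1.05 ± 0.18) and Ndufb8 (1.02 ± 0.21), with limma adjusted p values of 0.00413, 9.73e-05, 0.00122 and 0.00413. Ndufb1, an accessory subunit of the membrane arm, was at 8.80, 8.15 and 7.95 against 7.35, 7.44 and 6.78. All 3 rhoGFP-positive arrays were higher, replicate 1 most. Without rhoGFP-positive replicate 1 the count was 28 with a median of 0.33, and without nestinGFP-positive replicate 3, the lowest array, it was 31.

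The 3 genes that fell in this comparison all belong to complex IV. Ndufa4l2 fell by 2.13 ± 0.36, Cox6b2 by 1.43 ± 0.28 and Cox4i2 by 1.21 ± 0.18 on the log2 scale (limma adjusted p = 0.00128, 0.00273 and 0.000503), and each kept its call whichever array was left out. Cox6b2 was at 6.46, 6.82 and 7.28 in rhoGFP-positive and 8.17, 8.10 and 8.60 in nestinGFP-positive cells. Cox4i2 was at 6.17, 6.02 and 6.07 against 7.03, 7.11 and 7.77. Neither gene overlapped between these groups. Here too Kdr fell by 2.34 ± 0.18 and Cldn5 fell by 2.37 ± 0.26, and the median of the 4 vessel genes was 6.62 to 6.70 on the nestinGFP-positive arrays. Other cell type markers moved in this comparison too. Of 5 cone genes 4 were higher, with a median log2 difference of 1.09 and a median level of 8.35 to 8.43 on the rhoGFP-positive and 7.18 to 8.10 on the nestinGFP-positive arrays. Of 3 microglial genes 2 were higher (median level 5.84 to 6.37 against 5.60 to 5.64), and all 5 amacrine genes were lower (6.25 to 7.08 against 9.70 to 10.2), as were all 9 progenitor and glial genes. The part of these markers in the subunit values was not tested. Cox8c, a testis form, was the only restricted isoform that rose, by 0.31 ± 0.10 (limma adjusted p = 0.0343). That call was lost in 6 of the 9 fits that left out 1 array, at an adjusted p of up to 0.0977: without any of the 3 rhoGFP-positive arrays, without nestinGFP-positive replicate 2 or 3 and without rhoGFP-negative replicate 2.

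No subunit gene was called between the 2 groups outside the rhoGFP-positive fraction. Between rhoGFP-negative cells of P4 and nestinGFP-positive cells of P0 limma called none of the 83, against 2.03% of all genes, and 3 had an unadjusted p below 0.05, against 18.1% of all genes. The median log2 difference was 0.04, beside 0.03 for all genes. The 95% interval lay within 2-fold either way in 82 of 83 genes, the exception being Cox6b2 at -0.61 ± 0.28. That bound is wider than the median rise of 1.31-fold between the rhoGFP fractions, so it does not show that these groups are alike at that size. Ndufa4 differed by 0.04 ± 0.18, Cox8a by 0.13 ± 0.12 and Ndufa4l2 by -0.04 ± 0.36. With the replicate number as a block 1 gene was called higher (Ndufv3, 0.34) and 1 lower (Cox6b2), against 3.9% and 6.89% of all genes in that fit. The replicate numbers of these groups were not read as pairs.

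Genes around the chain were counted in lists of the same kind, beside 10.1% of all genes higher and 14.2% lower. In the lists of this paragraph the shares called higher were near or below that of all genes. Carriers and energy transfer genes (3 of 13 higher) and citric acid cycle and pyruvate entry genes (3 of 19) were above it, on few genes, and are described at the end. Of 45 measured assembly factors 5 rose and none fell between the rhoGFP fractions, with a median of 0.13. Ttc19, an assembly factor of complex III, was at 9.55, 9.89 and 10.1 against 8.99, 8.57 and 8.70 and rose by 1.11 ± 0.16 (limma adjusted p = 0.00074). Of 76 genes of the mitochondrial ribosome 4 rose and 1 fell, with a median of 0.07, of 24 import genes none rose and 1 fell (Timm8a1, -0.52 ± 0.14), and of 10 cristae genes none was called. Mrpl49 rose by 1.01 ± 0.15 and Mrpl16 fell by 0.55 ± 0.14, both of the large ribosomal subunit (limma adjusted p = 0.000947 and 0.018). On rhoGFP-positive replicate 1 the median of the mitochondrial ribosome genes, at 9.90, also stood above 9.50 and 9.49 on the 2 other arrays of its group. Among 20 regulators of mitochondrial genes 2 rose and 3 fell. Ppargc1b, a coactivator that drives mitochondrial genes, was at 11.3, 11.1 and 10.9 in rhoGFP-positive and 7.05, 5.96 and 5.82 in rhoGFP-negative cells. It rose by 4.85 ± 0.28 and its relative Ppargc1a by 2.58 ± 0.21 (limma adjusted p = 4.64e-06 and 2.37e-05), with no overlap in either. Pprc1, the third member of that family, fell by 0.79 ± 0.17 (limma adjusted p = 0.00713). None of Nrf1, Esrra, Esrrb, Esrrg, Gabpa and Yy1, the listed factors for the searched motifs, was called. The same held for Tfam, which packs and transcribes the mitochondrial genome. Of the ETS family only Gabpa was listed, and its other members were not examined. The log2 difference of Nrf1 was 0.45 ± 0.15 (limma adjusted p = 0.0582) and that of Esrrg 0.51 ± 0.20 (limma adjusted p = 0.0953). Esrra was at -0.04 ± 0.10, Esrrb at 0.15 ± 0.11, Gabpa, an ETS-family factor, at -0.03 ± 0.18, Yy1 at -0.08 ± 0.17 and Tfam at -0.08 ± 0.20.

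**Figure D4:**
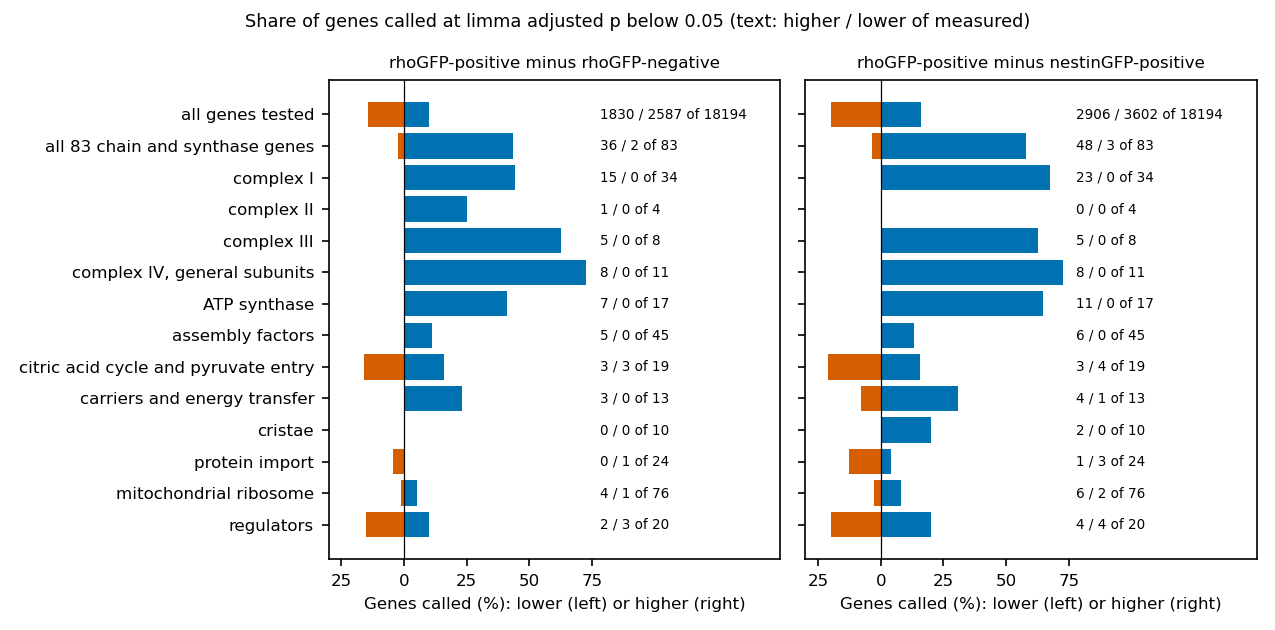
Share of the measured genes of each list called higher (right) or lower (left) by limma against either other group, with the counts as text. The subunit genes have 43.4% and 57.8% called higher, beside 10.1% and 16.0% of all genes tested, and the 2 comparisons share the rhoGFP-positive arrays.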

How the data were processed

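RNA of sorted retinal cells was labelled from 200 ng of total RNA and hybridised to 9 Affymetrix arrays, per the labels' protocols. The authors deposited log2 values made with RMA, of unstated version, per the submitters' processing notes. RMA compresses low signals, so folds near the lower end are understated, and no level was set against that of another gene. Of 45101 probe sets, 64 were controls, 34945 had 1 symbol, 932 several and 9160 no gene. The probe set with the highest mean over all arrays stood for each gene. Differences were fitted as 3 group means over all 9 arrays (limma 3.58.1 under R 4.3.3, two-sided lmFit with eBayes) and adjusted by Benjamini and Hochberg over 18194 genes. The steps were tested on simulated data with independent noise in each gene and array. That test does not show how the fit behaves where arrays of equal number are correlated. Precision is limited by the number of arrays (median standard error 0.14), and the labels do not say whether replicates came from separate litters. Promoters came from RefSeq.

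The genes, lists and tests were chosen with earlier results of these data known. In every comparison, statistics were given for up to 4 genes with the largest called rise and fall. Only between the rhoGFP fractions were they also given for the highest and lowest gene of each complex, the core subunits and the isoform sets. Regulators were likewise given for that comparison only, and several genes there have a difference and standard error without an adjusted p. Further genes were named after their values were seen. Some subunits of these complexes are not analysed here. Deviations from each group's mean were correlated over genes between same-numbered arrays, which gave 0.624, 0.454 and 0.451 for the rhoGFP fractions, 0.543, 0.155 and 0.235 for rhoGFP-negative with nestinGFP-positive arrays, and 0.522, -0.00806 and 0.252 for rhoGFP-positive with nestinGFP-positive arrays. Numbers were therefore read as pairs for the rhoGFP fractions only, from the data and not from the labels. The main fit did not use these pairs, and the replicate block did. Among the other correlations, rhoGFP-negative replicate 2 gave 0.221 with nestinGFP-positive replicate 3, above 0.155 with its own number. The nestinGFP-positive group also differs in line and age, so the replicate block served there only as an alternative fit. Alternatives were other normalizations, other probe set choices and filters, only the 6 arrays compared, the replicate block, other thresholds, other eBayes settings, and leaving out each array in turn; leaving out the 3 replicate 1 arrays was added after seeing the data.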

Additional observations from a re-analysis of the deposited data

How the results depend on the processing

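The counts of genes called moved with the threshold, the normalization, the replicate block and single arrays. The medians did not move by more than the spread between arrays. Cyclic loess gave 51 genes higher between the rhoGFP fractions and the replicate block 50, against 10.1% and 13.8% of all genes in those fits. Quantile normalization and the mean of all probe sets each gave 41, against 10.3% and 10.7%. Only the 6 arrays compared gave 29, against 10.1%. Between the rhoGFP fractions, leaving out 1 array gave 20 to 39 genes higher and 1 to 3 lower, and leaving out the 3 replicate 1 arrays gave 22 higher. At an adjusted p below 0.01, 15 were higher and 1 lower, and at 2-fold 1 and 1. Without genes below the 40th percentile, and with the replicate block, 4 were lower. Against the nestinGFP-positive fraction, leaving out 1 array gave 28 to 49 higher; an adjusted p below 0.01 gave 24 and 2-fold 4. Between the 2 other groups the replicate block gave 1 higher and 1 lower. The replicate block gave 54 higher and 3 lower in rhoGFP-positive against nestinGFP-positive cells. Numbers were not read as pairs in either comparison with nestinGFP-positive cells. A common median for all arrays moved the median of all genes to 0.11 in rhoGFP-positive against nestinGFP-positive cells. Differences near 0 changed sign. Leaving out 1 array gave 0.00 to 0.33 for Atp5a1, -0.32 to 0.05 for Atp5e, -0.08 to 0.20 for Cox7a1, -0.28 to 0.11 for Ndufc2, -0.05 to 0.12 for Sdhb, -0.05 to 0.19 for Sdhc and, against nestinGFP-positive cells, 0.00 to 0.22 for Ndufa12. Uqcrc2 was 0.04 with cyclic loess and 0.01 with the mean of all probe sets, Ndufc2 0.04 with cyclic loess, and without the 3 replicate 1 arrays Atp5g2 was -0.04, Cox7a1 -0.14, Sdhb -0.05 and Sdhc -0.03. The cause was not tested. Precision is bounded by 3 arrays a group.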

Other observations

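Single genes that feed the chain or carry its product differed widely between the rhoGFP fractions, where 10.1% of all genes were called higher and 14.2% lower. Of 13 measured carriers and energy transfer genes 3 rose and none fell, with a median log2 difference of 0.24. Ckmt1, the mitochondrial creatine kinase, was at log2 9.81, 9.60 and 9.57 in rhoGFP-positive and 5.60, 6.40 and 6.48 in rhoGFP-negative cells, a rise of 3.50 ± 0.28 (limma adjusted p = 1.91e-05). The aspartate and glutamate carrier Slc25a12 rose by 1.01 ± 0.15 and the oxoglutarate carrier Slc25a11 by 0.59 ± 0.09 (limma adjusted p = 0.000682 and 0.000854). The ADP and ATP carriers Slc25a4 and Slc25a5 differed by 0.30 ± 0.13 and 0.34 ± 0.24 and were not called. Of 19 genes of the citric acid cycle and pyruvate entry 3 rose and 3 fell, shares above those of all genes, but on few genes. The shared subunit of succinyl-CoA ligase, Suclg1, rose by 0.68 ± 0.20 (limma adjusted p = 0.0329). Its GTP-forming partner Suclg2 was at 6.57, 6.64 and 7.10 against 8.03, 8.10 and 8.64 and fell by 1.49 ± 0.24 (limma adjusted p = 0.00134), and no array overlapped between the fractions in Suclg2.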
